A study of Mus musculus with 6 samples.

Results

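Galectins are small lectins that bind galactose-ended glycans on cell surfaces, in the extracellular matrix and on the inner face of damaged vesicles. The genes described here are Lgals1, Lgals3, Lgals8 and Lgals9, which encode the galectins of the same number, and Lgals3bp, which encodes a secreted galectin-3-binding glycoprotein. Their values were taken by gene symbol from the deposited transcript tables and summed per symbol and library. Transcripts assembled without a gene name were added to a symbol where their locus held only that symbol. This touched Lgals3, Lgals8 and Lgals9, for which results with named transcripts only are also given. All 5 were among the 24394 symbols of the tables, and all 5 were among the 10393 genes whose mean of at least 1 FPKM allowed a test.

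Macrophages were grown from bone marrow monocytes of C57BL/6 mice (post natal day 28) in medium that held 50 ng/ml Mcsf, the growth factor of macrophages, over 7 days, in every culture. The stimulated group of 3 samples was then exposed to cartilage fragments (5 for each macrophage) over 24 h, while the control group of 3 samples received none. The fragments came from the mice that gave the marrow, no genotype was altered, and the cells are a culture model of marrow origin and not macrophages of the joint. The comparison asks how transcript levels of these genes differed between macrophages with and without cartilage fragments.

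Galectins have no signal peptide and leave cells by a non-classical route. Galectin-1 has a single carbohydrate-binding domain and acts as a dimer. Galectin-3 joins such a domain to a long flexible tail and forms oligomers, and it is so abundant in macrophages that its older name, Mac-2, is that of a macrophage surface antigen. Galectin-8 and galectin-9 carry a pair of binding domains joined by a linker. Lgals3bp is secreted by the classical route and carries a scavenger receptor cysteine-rich (SRCR) domain, the domain that also occurs in the macrophage receptor Marco.

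The values are fragment numbers scaled by Cufflinks to the length of each transcript and to the depth of its library (FPKM). They rested on an estimated 699237 to 776371 fragments per library. The study's methods state a far larger number of reads per sample, and the reason for this gap is not known. The 9 macrophage markers, Lyz2, Cd68, Csf1r and Adgre1 among them, were present in all 6 libraries. The summed FPKM of the chondrocyte markers was at most 4.22 in any library, with 6 of the 11 in the tables at 0 throughout, while dendritic cell markers came to at most 2.36 FPKM, lymphocyte markers to at most 0.578 FPKM and erythroid markers to 0. Fibroblast or stromal markers summed to 202 to 218 FPKM in the control libraries and to 126 to 147 FPKM in the stimulated ones, a difference in the direction of Lgals3, and their part in the results below was not tested. In bulk samples, fewer cells of a type and less RNA per cell cannot be told apart. Xist was present at 19.8 to 23.6 FPKM in every library. Transcripts from the Y chromosome (Uty, Kdm5d, Eif2s3y, Ddx3y) stood at 0 FPKM throughout. This is the pattern of female cells, whereas the study's methods name male mice. The reason for this conflict was not tested.

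The sequences shown here are those on which the results for Lgals9 and Lgals3bp are read. The long form of Lgals9 contains a coding exon that lengthens the linker between its carbohydrate-binding domains. This exon is the fifth of 11 exons, lies on chromosome 11 (chr11:78969714-78969806, minus strand, mouse build GRCm38, the same assembly as mm10), has 93 bases (31 codons), and is the difference between transcript NM_010708 and the shorter NM_001159301.
Lgals9 linker exon: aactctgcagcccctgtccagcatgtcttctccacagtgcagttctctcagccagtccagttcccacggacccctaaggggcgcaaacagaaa

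Lgals3bp and Lgals9 were the members with all stimulated values above all control values, so the RefSeq promoter windows of both are printed, from 250 bases before to 50 bases after the annotated start (build GRCm38.p6). Capitals mark, on either strand, a pair of GAAA half-sites with a gap of 2 or 3 bases, the form of an interferon-type response element. These pairs, and an NF-kB-type motif (GGGA, any base, TT, any base, CC), were chosen after the values were known. The windows are chr11:118401910-118402209 for Lgals3bp and chr11:78984875-78985174 for Lgals9, both on the minus strand.
Lgals3bp: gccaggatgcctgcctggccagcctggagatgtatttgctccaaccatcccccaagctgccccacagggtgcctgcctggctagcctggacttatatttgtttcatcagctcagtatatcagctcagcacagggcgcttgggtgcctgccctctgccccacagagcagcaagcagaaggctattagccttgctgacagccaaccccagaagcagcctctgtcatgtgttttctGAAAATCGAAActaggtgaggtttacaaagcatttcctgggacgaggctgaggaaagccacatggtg
Lgals9: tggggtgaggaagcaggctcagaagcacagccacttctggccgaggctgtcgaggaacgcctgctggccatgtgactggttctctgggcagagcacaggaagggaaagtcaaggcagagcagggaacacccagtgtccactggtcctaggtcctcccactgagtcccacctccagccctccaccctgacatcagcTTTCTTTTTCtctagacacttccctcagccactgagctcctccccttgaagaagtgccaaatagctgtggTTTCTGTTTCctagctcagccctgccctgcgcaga

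The Lgals3bp window held 1 pair with a gap of 3, which began 17 bases before the start annotated for the window. That start lies upstream of the 5′ end of the measured Lgals3bp transcript (118401931), so the pair is farther from that end. The Lgals9 window held 2 pairs with a gap of 2, both on the opposite strand, 55 bases before and 15 bases after the start. The windows of Lgals3 and Lgals8 held no pair, none of these 4 windows held the NF-kB-type motif, and Lgals1 was not in the table. Among 32851 promoter windows of the same length 3.44% held a pair with a gap of 2, 2.75% a pair with a gap of 3 and 1.2% the NF-kB-type motif. A match of letters is a description and not evidence of a bound factor.

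Lgals3 was the most abundant member and was lower in the stimulated macrophages. Lgals3bp was higher in every stimulated library than in any control library, and so was Lgals9 when transcripts assembled without a name were counted. Lgals1 and Lgals8 overlapped between the groups. The order of the levels, Lgals3, Lgals1, Lgals3bp, Lgals9 and Lgals8, was the same in all 6 libraries, and no pair of neighbours in that order overlapped. The smallest gap was between Lgals9 and Lgals8, whose FPKM ratio lay between 1.48 and 2.68 within a library.

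**Figure D1:**
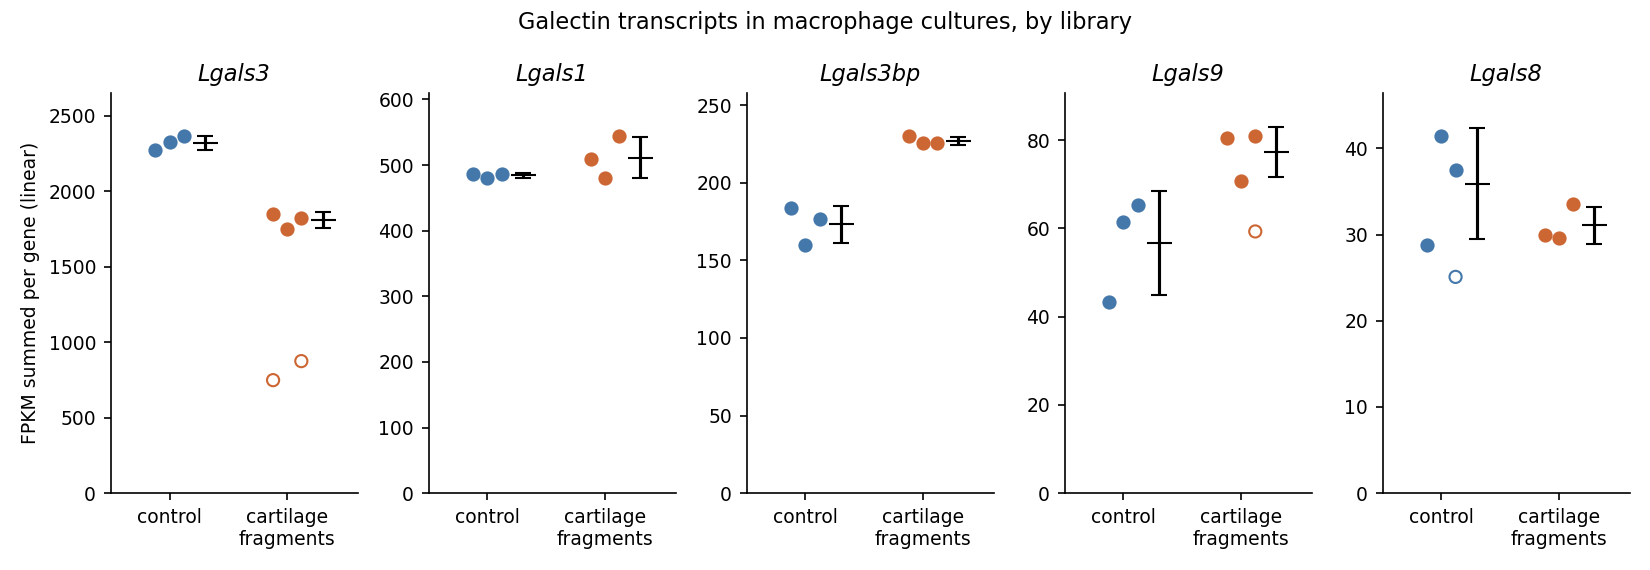
FPKM (y axis, linear, a scale per gene) of the 5 genes in 3 control (blue) and 3 stimulated (orange) libraries. Filled points are libraries, bars give the mean ± SD, and open points give the value of a library when transcripts assembled without a name are left out. The filled points of Lgals3, Lgals3bp and Lgals9 do not overlap between the groups.

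Galectin-3 is a chimera-type galectin that takes part in phagocytosis and gathers on ruptured phagosomes. Lgals3 (chromosome 14, 47373860 to 47386167, mm10) had 2272, 2328 and 2365 FPKM in control replicates 1 to 3 and 1851, 1748 and 1826 FPKM in stimulated replicates 1 to 3. All 3 stimulated libraries lay below all 3 controls. The mean fell from 2322 ± 46.7 to 1808 ± 53.6 FPKM (SD, n = 3), which is 22.1% lower. The log2 fold change was -0.36 with a standard error of 0.039 and an adjusted p of 0.0104 (limma, Benjamini-Hochberg over 10393 genes), against a background of 0.366% of all tested genes past that threshold and 0.0577% past it as lower. Lgals3 was the only member past it, 1 of 5. Leaving out stimulated replicate 1 gave an adjusted p of 0.0644 and leaving out stimulated replicate 2 gave 0.0549, and it lay past the threshold with any other library left out. The adjusted p was 0.556 when the variances were moderated without trend or robust, and 0.0614 with the replicate number as a block (limma).

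The fall of Lgals3 was also present in the estimated fragments. These come from the coverage of the same lines as the FPKM, so they are another scale and not independent evidence. The estimated fragments, scaled to 1000000 per library, were 2643, 2692 and 2751 in the controls and 2053, 2022 and 2048 in the stimulated libraries. On that scale the log2 fold change was -0.40 with a standard error of 0.036 and an adjusted p of 1.15e-09 (limma), where 2.49% of all tested genes were past the threshold, 1.65% higher and 0.847% lower. Lgals3 ranked 15 to 16 by FPKM among all symbols in the control libraries and 19 to 24 in the stimulated ones, so it stayed among the most abundant transcripts.

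The value of Lgals3 depended on which lines of the tables were counted. Cufflinks lists reference transcripts by name and also transcripts that it assembled in that library, which carry no gene name. At the Lgals3 locus such a line stood in stimulated replicate 1 with 1102 FPKM, or 59.5% of the gene, and in stimulated replicate 3 with 951 FPKM, or 52.1%, and in no other library. Both lines had their 5′ end within the first intron (47373980 to 47379522), 1278 and 1289 bases before exon 2. Their lengths, 1313 and 1324 bases, exceeded that of exons 2 to the last (1286 bases) by 27 and 38 bases. If the rest of each line matches those exons, both have a short first exon of their own that ends at the same base (47378271). With named lines only, Lgals3 had 749, 1748 and 875 FPKM in the stimulated libraries and unaltered values in the controls. The named lines alone gave a log2 fold change of -1.15 with a standard error of 0.32 and an adjusted p of 0.529 (limma), more than 1.5 times the change of the whole locus and not past the threshold.

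The named transcripts of Lgals3 differ only in where exon 1 ends. NM_001145953 held 71.3% to 75.5% of the gene in the controls and 69.2% in stimulated replicate 2, where no assembled line was listed. NM_010705 had 652, 650 and 579.8 FPKM in the controls and 0, 538 and 239 FPKM in the stimulated libraries. In the fit of transcripts (12723 tested, 0.0786% past the threshold) NM_001145953 had a log2 fold change of -1.02 (adjusted p = 0.405, limma) and NM_010705 was listed at 0 in stimulated replicate 1, where an assembled line was present.

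**Figure D2:**
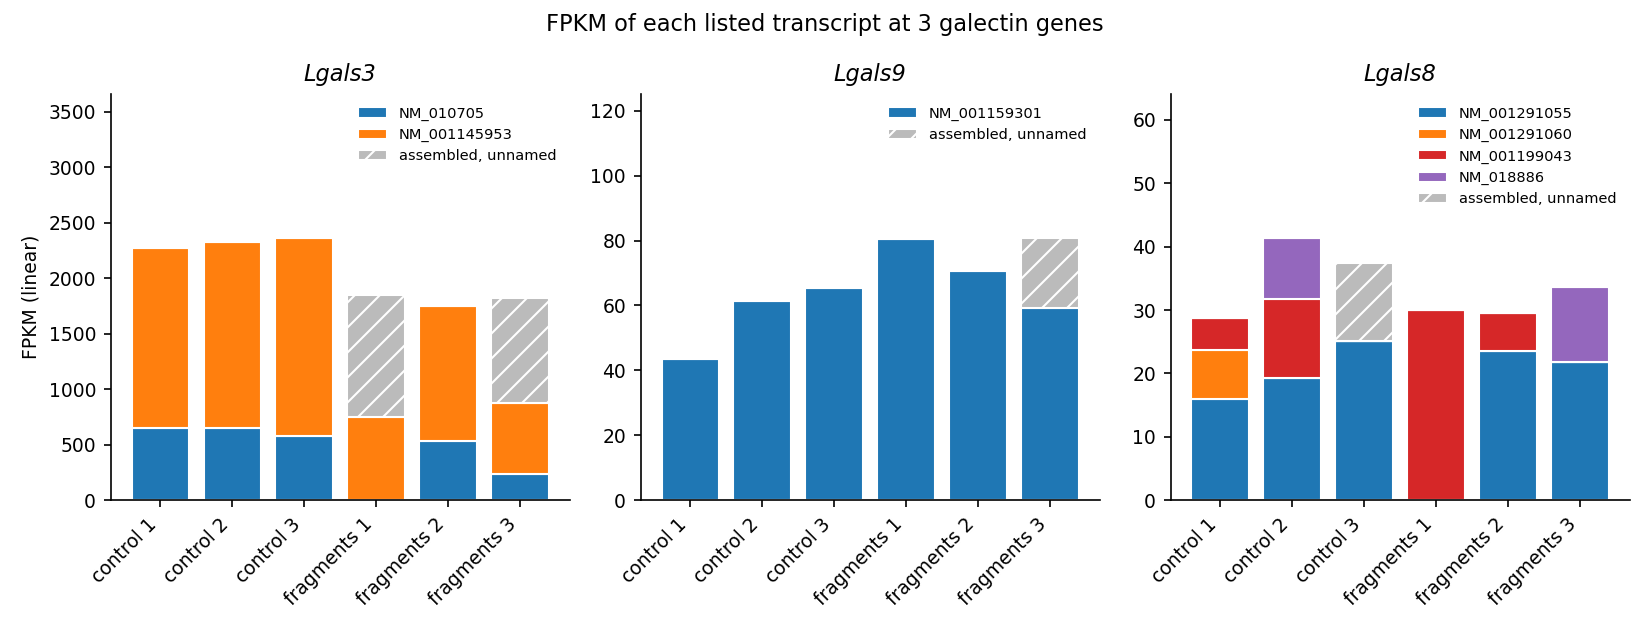
FPKM (y axis, linear) of each listed transcript of Lgals3, Lgals9 and Lgals8, stacked by library (x axis). Hatched grey is the line assembled without a name, which holds 59.5% and 52.1% of Lgals3 in stimulated replicates 1 and 3 and none of it in the controls.

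Lgals3bp encodes the galectin-3-binding protein (90K, or Mac-2-binding protein), which is secreted and bridges galectins and matrix proteins. It has a single named transcript, NM_011150 (chromosome 11, 118392752 to 118401931, mm10), and no assembled line at its locus, so the choice of lines did not touch it. It had 183, 160.2 and 176 FPKM in the controls and 229.9, 225 and 225 FPKM in the stimulated libraries. The stimulated values lay closer together than the controls and above all of them. The means were 173 ± 11.9 and 227 ± 2.56 FPKM (SD, n = 3), 30.9% higher with cartilage fragments.

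The log2 fold change of Lgals3bp was 0.39 with a standard error of 0.079 and a 95% interval of 0.21 to 0.57. Its unadjusted p was 0.00117, and its adjusted p of 0.123 (limma) missed the threshold. On scaled fragments the controls had 355, 308 and 341 per 1000000 and the stimulated libraries 443, 435 and 435. There the log2 fold change was again 0.39 and the adjusted p was 0.00214 (limma), and it lay between 0.00342 and 0.0391 with each library left out in turn. Because the gene has a single transcript, its scaled fragments follow its FPKM, and the equal direction and size add no evidence. The standard error was 0.078 on scaled fragments, near that on FPKM, while the unadjusted p was 2.02e-05 (limma). The call of Lgals3bp thus turned on the moderation of variances over all genes, which differed between the fits, and not on its own values.

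Groups without overlap occurred for 3 of the 5 members, 2 higher and 1 lower. Among all 10393 tested genes 15.9% had groups that did not overlap, 9.04% higher and 6.89% lower. The smallest two-sided p that an exact permutation test over 3 libraries a group allows is 0.1.

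Galectin-9, a tandem-repeat galectin, is inducible by interferon and is a ligand of the receptor encoded by Havcr2. Lgals9 (chromosome 11, 78962979 to 78984924, mm10) had 43.4, 61.4 and 65.4 FPKM in the controls and 80.4, 70.8 and 80.9 FPKM in the stimulated libraries. The lowest stimulated value stood above the highest control, and control replicate 1 stood below the other controls. The means were 56.7 ± 11.7 and 77.4 ± 5.69 FPKM (SD, n = 3). The log2 fold change of 0.47 (standard error 0.17, 95% interval 0.08 to 0.86) had an unadjusted p of 0.0249 and an adjusted p of 0.441 (limma), and it was 0.29 without control replicate 1. On scaled fragments it was 0.44 with an adjusted p of 0.21. Lgals9 rested on 42.4 to 75.9 estimated fragments per library, which limits the precision of its values.

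All named FPKM of Lgals9 were assigned to the short transcript NM_001159301. The long transcript NM_010708, which contains the linker exon printed above, was listed at 0 in all 6 libraries, with deposited upper bounds of 1.88 to 2.10 FPKM. In stimulated replicate 3 an assembled line of 1295 bases held 21.6 FPKM, or 26.7% of the gene. Its length is that of 8 exons of the short form, from exon 3 on (1257 bases), with 38 further bases. On this minus-strand gene those bases extend exon 3 at its 5′ end, into the intron upstream of it. Read this way the line also lacks the linker exon. With named lines only, stimulated replicate 3 had 59.3 FPKM, so that the groups overlapped, and the log2 fold change was 0.32 (adjusted p = 0.797, limma).

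Galectin-1, the prototype galectin, dampens T-cell responses and is also abundant in fibroblasts and smooth muscle. Lgals1 (chromosome 15, 78926725 to 78930465, mm10, NM_008495) had 487, 480.0 and 486 FPKM in the controls and 509, 481 and 544 FPKM in the stimulated libraries. Stimulated replicate 2 lay within the range of the controls. The means were 484 ± 3.68 and 511 ± 31.6 FPKM (SD, n = 3), and the log2 fold change of 0.08 (95% interval -0.07 to 0.22) had an adjusted p of 0.761 (limma). The interval leaves out a change of the size fitted for Lgals3.

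Galectin-8, a tandem-repeat galectin, recognises glycans on ruptured vesicles and can recruit the autophagy receptor Calcoco2. The gene Calcoco2 was listed at 0 FPKM in every library here. Lgals8 (chromosome 13, 12439402 to 12461738, mm10) had 28.8, 41.4 and 37.5 FPKM in the controls and 30.0, 29.6 and 33.6 FPKM in the stimulated libraries. The stimulated values lay inside the span of the controls. The log2 fold change was -0.19 (95% interval -0.59 to 0.20) with an adjusted p of 0.779 (limma), an interval that holds changes as large as those of Lgals3. It was -0.34 without control replicate 1, -0.08 without control replicate 2, -0.00224 with named lines only and -0.92 with lines of status OK only, which left out NM_001291055 in 4 libraries. Among its 5 reference transcripts the one with the most FPKM was not the same in every library. NM_001291055 held 46.4% to 79.3% of the gene in 5 libraries and was at 0 in stimulated replicate 1, where NM_001199043 held 100%. An assembled line held 33.1% of Lgals8 in control replicate 3. No split between these transcripts could be compared at 50.8 to 77.7 estimated fragments a library.

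**Figure D3:**
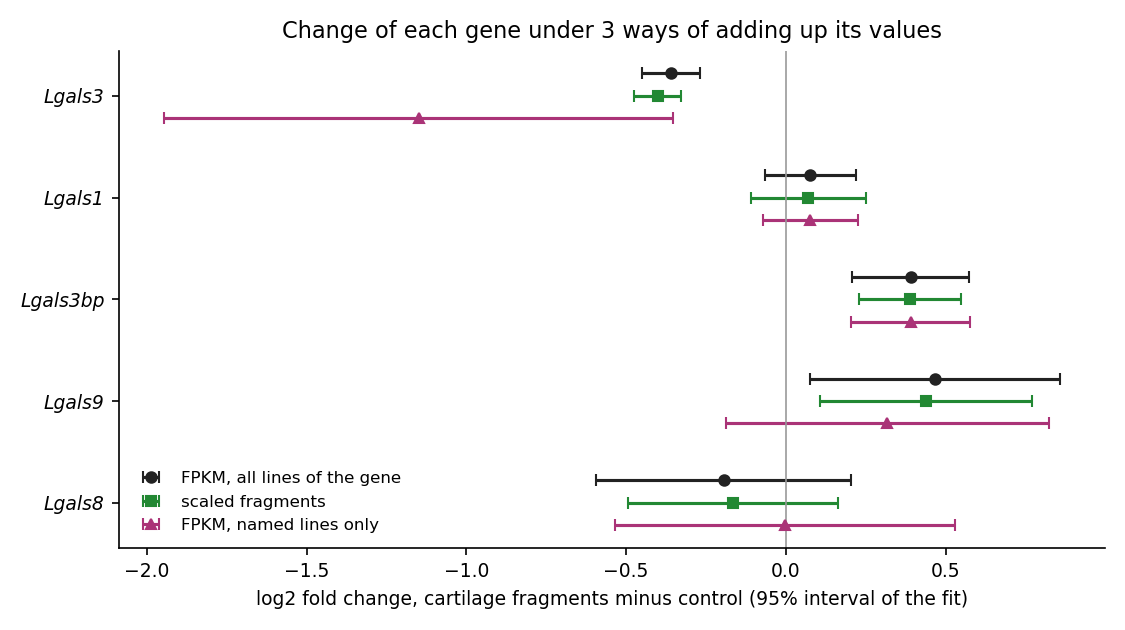
Log2 fold change (x axis, stimulated minus control) of the 5 genes with the 95% interval of the limma fit, for FPKM of all lines of the gene (black), scaled fragments (green) and FPKM of named lines only (purple). The purple interval of Lgals3 is the widest, at -1.15, while the black and green values of Lgals3 are -0.36 and -0.40.

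The make-up of the galectin transcripts differed with these values. Lgals3 made up 79.98% to 80.3% of the summed FPKM of the 4 galectins in the controls and 73.5% to 75.1% in the stimulated libraries. With named lines only, its share in the stimulated libraries was 54.7%, 75.1% and 57.9%. Lgals1 made up 16.4% to 17.2% and 20.6% to 21.9%, and Lgals9 1.53% to 2.21% and 3.04% to 3.26%. The sum itself was 2898 ± 62.1 FPKM in the controls and 2428 ± 85.9 FPKM in the stimulated libraries (SD, n = 3).

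The ratio of Lgals3bp to Lgals3 joins the fall of the one to the higher values of the other. It was 0.0807, 0.0688 and 0.0746 in the controls and 0.124, 0.129 and 0.123 in the stimulated libraries, a mean of 0.0747 ± 0.00597 against 0.126 ± 0.00301 (SD, n = 3). The difference of the means was 0.0508, and 0.156 with named lines only. The ratio of Lgals3 to Lgals1 was 4.67 to 4.87 in the controls and 3.36 to 3.64 in the stimulated libraries. Both ratios are descriptions, since their parts are the values already given, and no test was run on them.

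**Figure D4:**
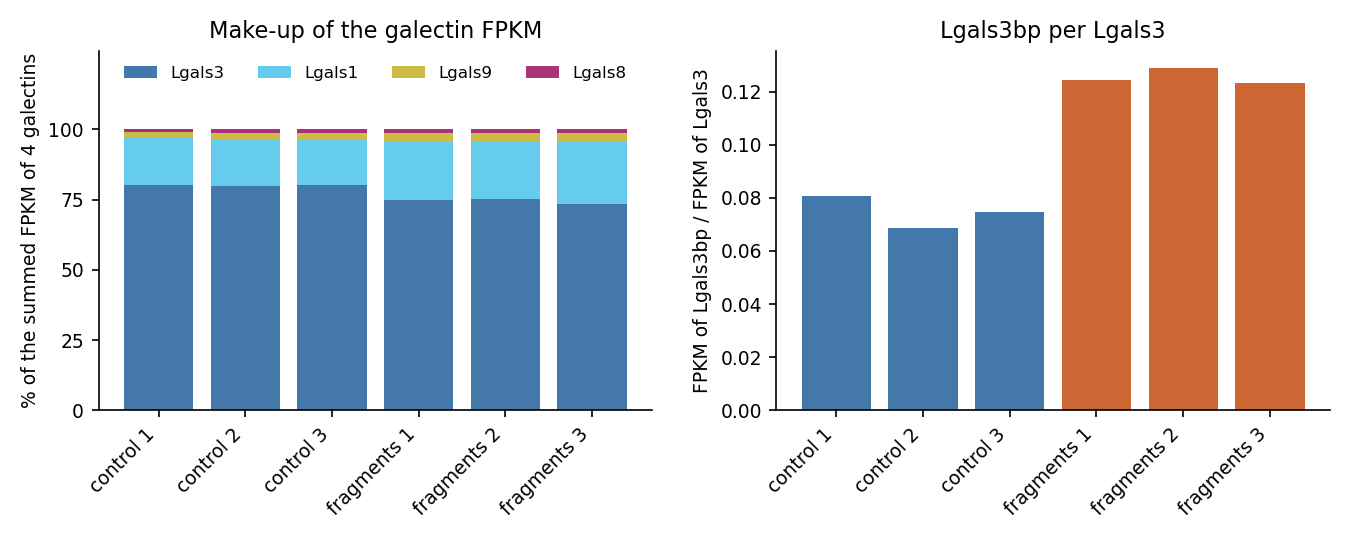
Left, share of each galectin in the summed FPKM of 4 galectins (y axis, percent) by library. Right, FPKM of Lgals3bp divided by that of Lgals3 (y axis, linear, bars from 0) by library, with values up to 0.0807 in the controls (blue) and from 0.123 in the stimulated libraries (orange).

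The other genes of the family were nearly silent. Lgals2, Lgals6, Lgals7, Lgals12 and Grifin were at 0 in all 6 libraries. Lgals4, an intestinal galectin, was listed at 1.10 FPKM in control replicate 3 and at 1.14 and 4.69 FPKM in stimulated replicates 2 and 3, and at 0 in the others. Those values correspond to 0.984, 0.985 and 3.94 estimated fragments, and Lgals4 shares near-identical sequence with Lgals6, so its assignment is uncertain. Lgalsl, the galectin-like gene, had at most 0.792 FPKM and about 2 fragments or fewer.

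The galectin binding partners are the glycoproteins on which galectins and Lgals3bp act. Of 24 listed, 23 were tested, and 0 passed the threshold on FPKM (limma). An unadjusted p under 0.05 was reached by 8 of the 23, a larger share than the 9.19% of all tested genes. By the sign of the log2 fold change 14 were higher and 9 lower, and their median was 0.10 against 0.00365 over all tested genes. On scaled fragments 4 passed as higher and 1 as lower, against 1.65% and 0.847% of all tested genes. These were the integrin subunits Itgb2 (0.16), Itgam (0.26) and Itga5 (0.44), the secreted matrix protein Spp1 (0.20) and the transferrin receptor Tfrc (-0.46), each given as a log2 fold change. The list was assembled with earlier results of these data known and is not independent evidence of its direction.

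The most abundant partners were Lamp1, Itgb2 and Spp1. Lamp1, the heavily glycosylated membrane protein of lysosomes, had 1035 ± 49.5 FPKM in the controls and 998 ± 17.6 FPKM with cartilage fragments (SD, n = 3), and its adjusted p was 0.80 (limma). Itgb2, the beta subunit of the Mac-1 integrin, had 730 ± 21.5 and 827 ± 18.7 FPKM. Spp1, osteopontin, had 639 ± 10.3 and 738 ± 25.1 FPKM. The groups did not overlap for 10 of the 23 tested partners (43.5%, against 15.9% of all tested genes), 6 of them higher (Itgb2, Spp1, Itgam, Itga5, Cd44 and Itgb1) and 4 lower (Tfrc, Trem2, Tlr4 and Lrp1).

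The SRCR domain genes, which share a domain with Lgals3bp, held the largest change among the lists. Of 14 listed, 6 were tested, and 1 passed the threshold, against 0.366% of all tested genes. Marco, a scavenger receptor for particles, had 18.3, 32.3 and 26.7 FPKM in the controls and 409, 415 and 350 FPKM in the stimulated libraries. It rose by 3.95 on the log2 scale (standard error 0.20, adjusted p = 0.000213, limma). Msr1, scavenger receptor A, had 84.6 ± 11.2 and 113 ± 11.4 FPKM (adjusted p = 0.329), and Cd5l had 49.4 ± 16.0 and 42.3 ± 9.78 FPKM (adjusted p = 0.848). The median of the 6 was 0.31, against 0.00365 over all tested genes. Values above 0 were found for 5 of the 6, and for 5249 of all 10393 tested genes.

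The enzymes of N-glycan branching build the glycans that galectins bind. Of 26 listed, 22 were tested and 0 passed the threshold on FPKM (limma). An unadjusted p under 0.05 was held by 1 of the 22, against 9.19% of all tested genes. The tested enzymes divided into 11 higher and 11 lower, and their median log2 fold change was 0.00454 on FPKM and -0.0121 on scaled fragments. There 1 of the 22 passed, against 2.49% of all tested genes. The most abundant were Mgat1, which starts branching (56.8 ± 2.62 and 56.8 ± 7.89 FPKM), Mgat4b and Man2a2. Mgat4b, a branching enzyme, was listed at 0 in stimulated replicate 1 and at 50.7 to 76.2 FPKM in the other libraries, so no fold change is given. Man2a2, a Golgi mannosidase, had 56.6 ± 6.10 and 40.3 ± 3.47 FPKM (adjusted p = 0.29 on FPKM and 0.0125 on scaled fragments, limma).

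In the response to damaged lysosomes, galectin-3, galectin-8 and galectin-9 mark ruptured membranes for repair or autophagy. Of 29 listed genes 27 were tested and 0 passed the threshold on FPKM (limma). An unadjusted p under 0.05 was held by 2 of the 27, against 9.19% of all tested genes, and the median log2 fold change was 0.0127. On scaled fragments 1 passed as higher and 1 as lower, against 1.65% and 0.847% of all tested genes. The most abundant were Sqstm1, Gabarap and Plin2. Sqstm1, the autophagy receptor p62, had 646 ± 35.4 FPKM in the controls and 757 ± 52.0 FPKM with cartilage fragments (adjusted p = 0.321 on FPKM and 0.0104 on scaled fragments, limma). Gabarap, which anchors cargo to the autophagosome, had 536 ± 56.3 and 575 ± 12.04 FPKM (adjusted p = 0.727). Plin2, the coat protein of lipid droplets, had 609.6 ± 4.11 and 487 ± 26.8 FPKM (adjusted p = 0.1005 on FPKM and 0.0003 on scaled fragments, limma).

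The genes of galectin secretion and exosomes form the vesicle routes by which galectins can leave cells. All 14 were tested and 0 passed the threshold on FPKM or on scaled fragments (limma), while 2 had an unadjusted p under 0.05 on FPKM and 5 on scaled fragments, where 9.19% and 11.7% of all tested genes did. By sign 10 were higher and 4 lower, and their median log2 fold change was 0.11. The tetraspanin Cd63 had 1355 ± 58.3 and 1367 ± 12.8 FPKM, the tetraspanin Cd9 433 ± 20.9 and 382 ± 23.9 FPKM, and the syntenin gene Sdcbp 344 ± 6.04 and 378 ± 16.9 FPKM. In none of the 5 lists beside the galectin family did a gene other than Marco pass the threshold on FPKM.

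**Figure D5:**
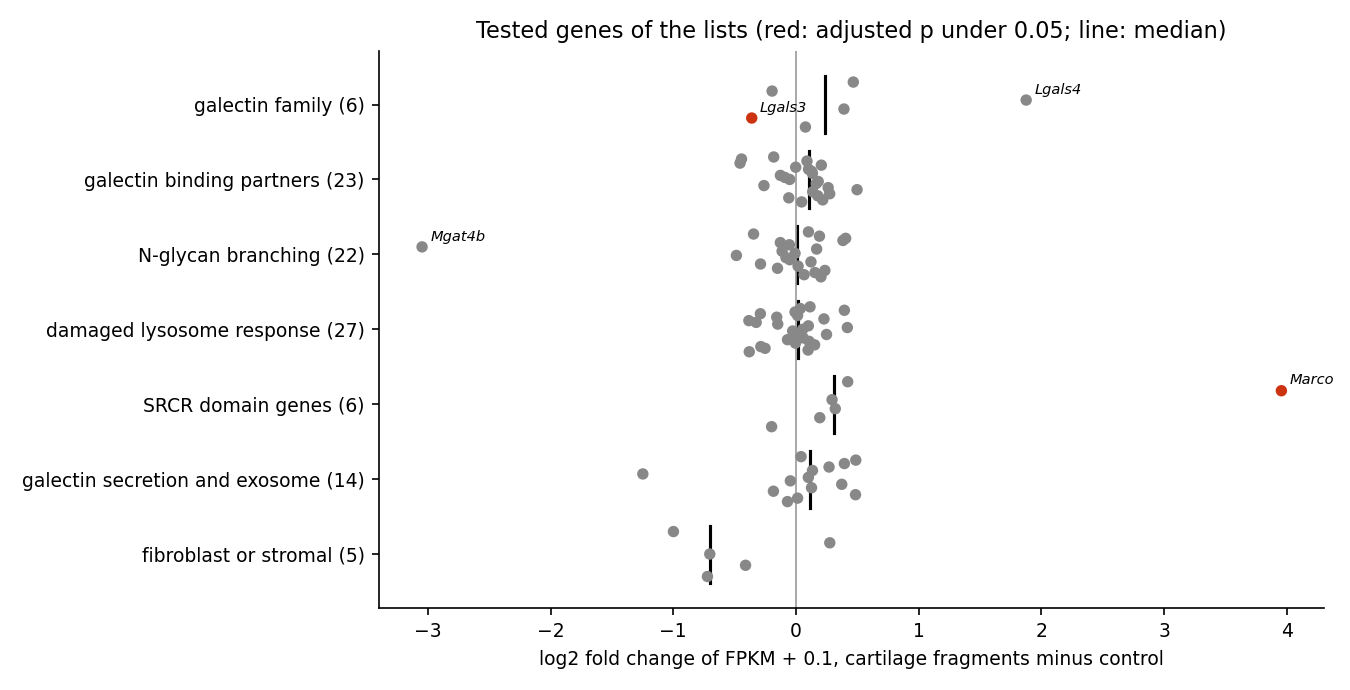
Log2 fold change of FPKM + 0.1 (x axis, stimulated minus control) of each tested gene by list (y axis, number tested in brackets), with the median as a line and genes past the adjusted threshold in red. Lgals3 and Marco are the red points, and the fibroblast or stromal markers lie mostly below 0.

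Among the stromal markers that moved in the same direction as Lgals3, Postn had 47.5 ± 1.59 FPKM in the controls and 23.9 ± 3.70 FPKM with cartilage fragments (log2 fold change -0.999, adjusted p = 0.0529 on FPKM and 1.49e-05 on scaled fragments, limma). Col1a1 had 79.0 ± 7.28 and 47.8 ± 3.77 FPKM (-0.72, adjusted p = 0.0849 on FPKM and 2.59e-06 on scaled fragments) and Col1a2 had 78.1 ± 7.53 and 58.6 ± 3.51 FPKM (-0.41, adjusted p = 0.29 on FPKM and 0.00347 on scaled fragments). These 3 of the 5 tested markers passed as lower on scaled fragments (limma), against 0.847% of all tested genes. On FPKM 0 passed, against 0.366% of all tested genes, and 3 had an unadjusted p under 0.05, against 9.19%. Of the other tested markers, Col3a1 was lower (-0.70, adjusted p = 0.718, limma). Dcn was higher, with 2.79 ± 0.962 and 3.52 ± 1.53 FPKM (0.28, adjusted p = 0.893, limma). Lum, Pdgfra and Pdgfrb averaged under 1 FPKM and were not tested. Neutrophil markers summed to 978 to 1081 FPKM in the controls and 871 to 1228 FPKM in the stimulated libraries, ranges that overlap. Of the macrophage markers, Adgre1 (F4/80) rose by 0.59 (adjusted p = 0.00965) and Cd14 by 0.63 (adjusted p = 0.0388) on the log2 scale (limma), while Lyz2, Cd68 and Csf1r had adjusted p-values of 0.997, 0.60 and 0.987.

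The genes whose log2 values ran most like those of each member over the 6 libraries were found among 3408 tested genes of at least 20 FPKM. They were Rnh1 and Arfgap1 for Lgals3 (Pearson r = 0.998 and 0.995), Acp2 and Plek for Lgals3bp (0.996 and 0.984) and Rab11fip5 and Tor3a for Lgals9 (0.996 and 0.982). For Lgals1 they were Setd8 and Man2b2 (0.977 and 0.97), and for Lgals8 Eif4g3 and G6pdx (0.972 and 0.97). Over so few libraries, which share 1 contrast, r above 0.9 was reached by 72 genes for Lgals3 and 119 for Lgals3bp, so these names are descriptions.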

How the data were processed

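Per the labels and the methods of the study, stranded libraries were read as 100-bp pairs, aligned to mm10 with TopHat and Bowtie, and quantified by the authors with Cufflinks in each library (versions not given in the sources used here). The deposited FPKM, with their intervals, are 1 line per transcript. The deposited coverage signal is the mean read depth beside each FPKM. Fragments were estimated from it using the listed length less an offset of 235 to 242 bases. This offset was set in each library on transcripts taken to hold 1 fragment. Estimates lay within 0.1 of a whole number for 89.9% to 90.7% of low values checked. Those values include such transcripts, so the check is partly fixed by the offset. FPKM were summed per symbol. Lines assembled without a name were given to a symbol only where their locus held 1 symbol. Whether the TMM named in the methods had been applied cannot be told from the values.

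Groups were compared with limma 3.58.1 (R 4.3.3, lmFit, eBayes with trend and robust, two-sided) on log2(FPKM + 0.1) for genes averaging at least 1 FPKM, adjusted after Benjamini and Hochberg, with 0.05 as the threshold. Fold changes on this scale understate those of low genes. Scaled fragments were tested as log2(fragments per 1000000 + 1). The fit was tested on simulated data with changes larger than those of the members, so that test does not show how often changes of their size are called. Replicates are numbered in the labels, which do not say whether they are separate cultures or separate animals, so p-values measure only the spread between these samples. Python 3.11.15, pandas 2.3.3, numpy 2.4.6 and matplotlib 3.10.9 were used. Alternatives changed the pseudocount, filter, scaling, variance moderation, lines counted and replicate block, or left out each library.

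The members and lists were chosen with earlier results of these data known. Named genes were the members, the galectin family, and from each list those past the threshold and the 3 most abundant, with the 2 genes most correlated with each member. The other binding partners, the stromal and macrophage markers, and the genes past the threshold on scaled fragments were added after their values were seen.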

Additional observations from a re-analysis of the deposited data

How the results depend on the processing

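Each log2 fold change was refitted under 18 alternatives, and none of the 5 changed direction in any. Lgals3 kept its side of the threshold in 13. It missed it with variances moderated without trend or robust (-0.36, adjusted p = 0.556), with named transcripts only (-1.15, adjusted p = 0.529), with the replicate block (-0.36, adjusted p = 0.0614) and without stimulated replicate 1 or 2. The cause was not tested. With each library left out it ran from -0.38 to -0.34. Lgals3bp passed in 1, scaled fragments (0.39), and lay between 0.33 and 0.43 with a library left out. Lgals1, Lgals8 and Lgals9 passed in none. On scaled fragments, with a library left out or with the block, both chosen after seeing the data, Lgals3bp passed in each (0.43, 0.33 and 0.40 without control replicates 1 to 3, 0.38, 0.39 and 0.39 without stimulated replicates 1 to 3, and 0.39 with the block).

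The genes past the threshold numbered 38 (32 higher, 6 lower), 18 without trend, 259 on scaled fragments (171 higher, 88 lower), 19 with named transcripts only, 18 with the replicate block (17 higher, 1 lower) and 8 to 30 with a library left out, the lowest without stimulated replicate 1. On scaled fragments they numbered 189, 169 and 216 without control replicates 1 to 3, 161, 165 and 232 without stimulated replicates 1 to 3, and 244 with the block. The unadjusted threshold was passed by 955 genes on FPKM. No scaling moved the median of all genes by over 0.1. The galectin family had 1 gene past the threshold, 0 without trend, with named transcripts, with the block, or without stimulated replicate 1 or 2, and 2 on scaled fragments. On scaled fragments the counts were 5 of 23 tested binding partners, 1 of 22 for N-glycan branching and 2 of 27 for damaged lysosomes. The share of all tested genes was 2.49%.

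The ratio of Lgals3bp to Lgals3 was higher by 0.0508 with cartilage fragments, by 0.0901 on scaled fragments and by 0.156 with named transcripts only, and by 0.0479 to 0.0538 with a library left out. The share of Lgals3 differed by -5.61 percentage points, by -4.57 on scaled fragments and by -17.7 with named transcripts only, and by -5.89 to -5.12 with a library left out. Replicate numbers recur in both groups. Deviations of same-numbered libraries correlated at -0.0157, 0.159 and 0.124 over 5288 genes, and those of differently numbered ones at -0.252 to 0.14. With 3 libraries a group these values cannot settle whether the numbers are pairs. The methods name no pairing, and the main fit took the libraries as unpaired. Depth limits Lgals8 and Lgals9, at under 78 fragments a library.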

Other observations

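Deposited intervals did not always hold the FPKM they belong to. In 5 libraries, all but control replicate 1, the FPKM of Lgals1 stood above its own deposited upper bound, for example 544 FPKM against a bound of 516 in stimulated replicate 3. The same was true of the Lgals3 transcript NM_001145953 in stimulated replicate 2, with 1210.03 FPKM against 1193. Those 6 lines were the exceptions among 45 member lines above 0. Over all lines above 0, 1.04% to 1.17% lay outside their interval in those 5 libraries and 0% in control replicate 1, which was also the one library in which every line carried the status OK.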
